A study of Mus musculus with 15 samples.

Results

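Genes of neuronal growth and of the neurofilament were read across mouse prostate epithelial cells that carried 1 of 4 oncogenes or none. The members were the 3 neurofilament subunits Nefm, Nefl and Nefh, the growth cone gene Gap43, the receptor phosphatase Ptprz1 and the tubulin Tubb3, 6 of the 19938 genes measured. Each had 1 probe set assigned to it alone and 0 shared with another gene. Nefm, Gap43 and Ptprz1 were chosen by their levels over the groups (Nefm high in Ras, Gap43 highest in NeuT, Ptprz1 raised in Src), so these levels are a description and carry no test. The values of Nefl, Nefh and Tubb3 were not part of that choice and were tested, although the list was drawn up with results of these data known.

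The study held 15 arrays in 5 groups of 3, all from ventral prostate epithelium of FVB mice. The Myc, NeuT, Ras and Src groups were cells transduced with c-myc, neuT (an activated Erbb2 receptor), ha-ras or v-src, kept as stable lines in DMEM with serum. The design text counts 3 lines per oncogene, but nothing says whether they came from separate mice or transductions, so p-values measure the spread between these samples. The control group held primary epithelial cultures without a transduced gene, kept in primary culture medium and moved to the lines' medium the night before harvest. Medium history, transformation and the oncogene cannot be told apart in a comparison with control, and in bulk RNA fewer expressing cells and less RNA per cell cannot be told apart either.

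Neurofilaments are the intermediate filaments of axons: the light subunit forms the core, and the medium and heavy subunits join it with long tails that reach out from the filament. Growing neurites also use GAP-43, a membrane protein of the growth cone that binds calmodulin and is phosphorylated by protein kinase C, and class III beta-tubulin, a tubulin isotype widely used as a neuronal marker. Ptprz1 encodes a receptor tyrosine phosphatase of glia and neural precursors that binds pleiotrophin and contactin.

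Values are log2 expression as deposited, and a difference of 1 is a 2-fold change. Array medians ran from 6.19 to 6.32 over all probe sets, and the median of all gene values was 6.47; background was not measured here, so levels under that median may lie near it and a fold against such a level is unsure in size. The transduced genes checked the labels in part: Erbb2 was at 9.50 ± 0.38 (SD, n = 3) in NeuT and 7.80 ± 0.03 in control. Myc was at 8.78 ± 0.17 in the arrays labelled Myc and 9.70 ± 0.29 in control, and Src at 7.08 ± 0.02 in Src and 7.04 ± 0.19 in control. The Myc level thus went against its label, and the Myc group below means the arrays labelled Myc. Whether these probe sets read the transduced Myc and Src copies is not known here, so these levels are no firm check of the labels. Hras was not analysed here, so directions for Myc, Ras and Src rest on the labels. Control array 3 stood apart, with kidney tubule markers at a mean of 9.66 over 11 genes, against 5.62 and 5.67 in control arrays 1 and 2. For the 6 members it lay within 0.34 of the mean of those 2 arrays, furthest for Tubb3 (-0.34). Ras arrays were less alike than those of the other line groups. Between 2 Ras arrays 185 to 332 genes were at least 2-fold apart, against 3 to 31 between 2 arrays of Myc, NeuT or Src. Control array 3 lay further still from control arrays 1 and 2, with 682 and 709 such genes, against 3 between those 2 arrays. The fit shares 1 estimate of the spread per gene over the 5 groups, so its SE and p-values can understate the spread in Ras.

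**Figure D1:**
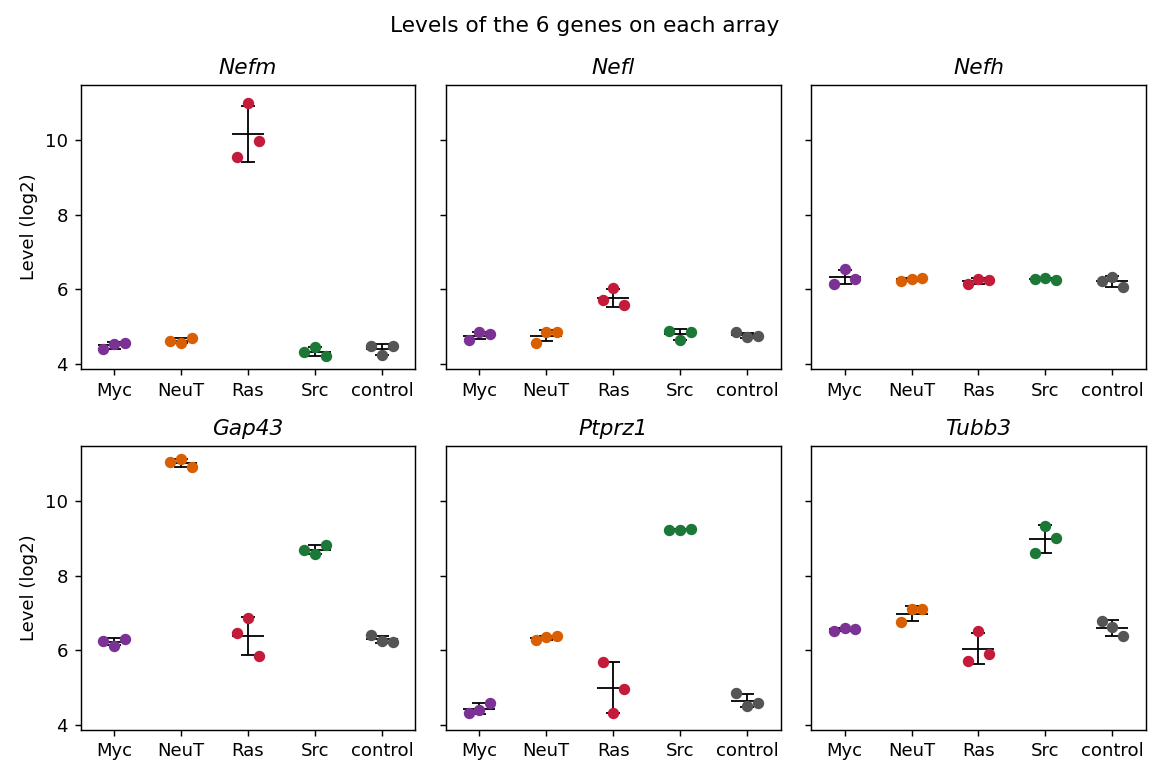
Level (log2) of each of the 6 genes on all 15 arrays, with the 3 arrays of a group as points, the group mean as a wide bar and the SD as an error bar. Nefm lies between 9.55 and 10.99 in Ras alone, Gap43 is highest in NeuT and next highest in Src, Ptprz1 and Tubb3 are highest in Src, and the 5 groups overlap for Nefh.

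The medium subunit was high in the Ras lines. Nefm was at 9.55, 10.99 and 9.98 in Ras arrays 1, 2 and 3, against 4.47, 4.24 and 4.48 in control. In the remaining lines it was at 4.41 to 4.57 in Myc, 4.56 to 4.69 in NeuT and 4.22 to 4.45 in Src. The lowest Ras array thus stood 4.86 above the highest array of the next group, NeuT. The NeuT arrays all lay above the control arrays (mean 4.62 and 4.39), while Myc and Src overlapped control. As a description, Ras exceeded control by 5.77 ± 0.25 (log2, SE from limma), or 54.8-fold. This SE uses 1 estimate of the spread shared by the 5 groups, while the SD was 0.74 in Ras and 0.07 to 0.14 in the others. Ras arrays of Nefm differed by up to 1.44 among themselves, and array 2 was the highest. The range of its group means, 5.84, was larger than that of 99.9% of the genes. Nefm was chosen for its high Ras level, so this rank is a description and no test.

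The light subunit, whose gene is the next one to Nefm on chromosome 14, was also higher in Ras. Nefl was at 5.71, 6.04 and 5.57 in Ras arrays, against 4.85, 4.71 and 4.75 in control, and no array overlapped. The difference was 1.00 ± 0.12 (95% interval 0.74 to 1.26; limma adjusted p = 1.98e-05), a 2.00-fold rise. Its highest Ras level, 6.04, stayed under the median of all gene values. Array 2 was again the highest of the 3 Ras arrays, as for Nefm. In the other lines Nefl averaged 4.76 in Myc, 4.76 in NeuT and 4.79 in Src, with differences from control of -0.01, -0.01 and 0.02 (limma adjusted p = 0.983, 0.961 and 0.916). Their 95% intervals stayed between -0.27 and 0.28. Against the mean of the other 3 oncogene groups, Ras was higher by 1.00 ± 0.10 (limma adjusted p = 2.73e-06). At an adjusted p under 0.05, 27.4% of all genes passed in Ras against control (13.3% higher, 14.2% lower), and 31.5% in Ras against the other oncogenes (13.2% higher, 18.3% lower). With each array centred on its median the Ras calls against control were 3916 higher and 2245 lower, as opposed to 2645 and 2824.

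The heavy subunit did not pass in any line group. Nefh was at 6.13, 6.28 and 6.26 in Ras arrays and 6.23, 6.34 and 6.07 in control. Myc arrays were at 6.15, 6.55 and 6.29, NeuT arrays at 6.22 to 6.30 and Src arrays at 6.26 to 6.30. Group means were 6.33 in Myc, 6.27 in NeuT, 6.22 in Ras, 6.28 in Src and 6.21 in control, and neighbouring groups in that order of levels overlapped throughout. Differences from control were 0.12, 0.06, 0.01 and 0.07 in Myc, NeuT, Ras and Src (limma adjusted p = 0.422, 0.742, 0.938 and 0.649). Their 95% intervals lay between -0.20 and 0.33, so that a change beyond 1.26-fold up or to 0.872-fold was outside them. Nefh reached the median of all gene values on 1 Myc array and on 0 arrays of each other group, so these folds are unsure in size. The range of its group means, 0.12, was larger than that of 6.05% of the genes. The 3 subunits thus gave 3 readings in Ras: a difference of 5.77 for Nefm, 1.00 for Nefl and 0.01 for Nefh.

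**Figure D2:**
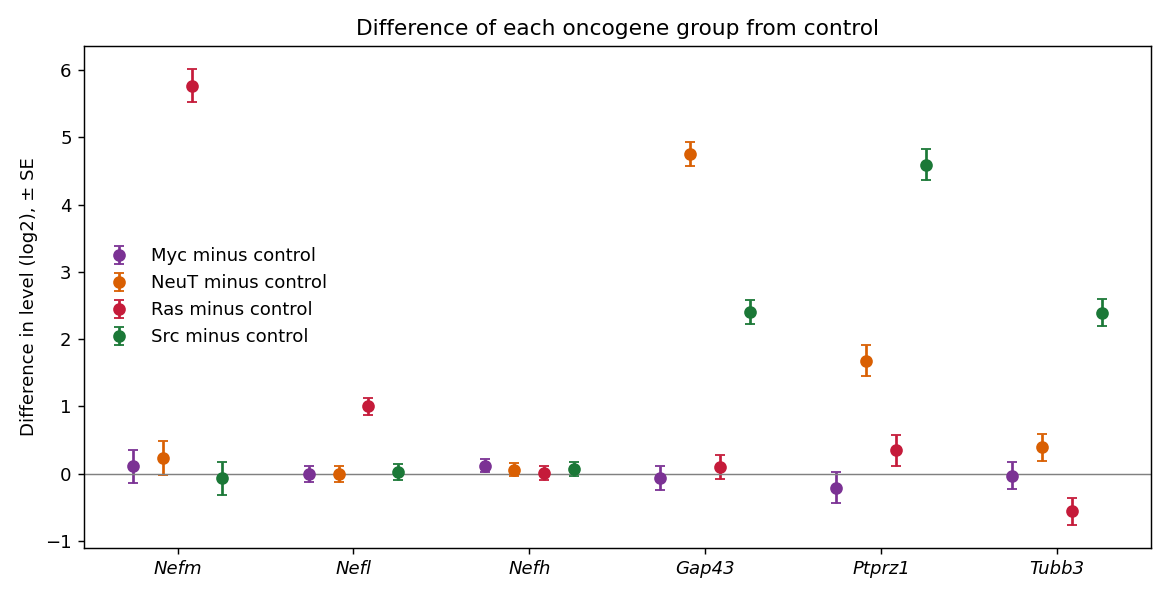
Difference in level (log2, ± SE from limma) of each oncogene group from control, for the 6 genes. Ras stands out for Nefm (5.77) and Nefl (1.00), NeuT and Src for Gap43 (4.75 and 2.40), and Src for Ptprz1 (4.59) and Tubb3 (2.39); the 4 groups share the same 3 control arrays.

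The measured genes beside the neurofilament pair were read for their own levels. They were taken by position in the reference order once the members' values were known. Dock5, which encodes an activator of Rac GTPases and lies next to Nefl, was at 9.56 in Ras and 8.43 in control (1.12 ± 0.14, limma adjusted p = 2.03e-05). It was also higher in NeuT (0.77, limma adjusted p = 0.000591) and lower in Src (-0.91, limma adjusted p = 0.000221), where the Nefl and Nefm differences were 0.02 and -0.07. Gnrh1, the gonadotropin-releasing hormone gene beyond Dock5, was at 7.55 in Ras and 7.12 in control (0.44 ± 0.13, limma adjusted p = 0.0189). That call was lost without control array 1 (adjusted p = 0.0908), without Ras array 1 (adjusted p = 0.0916) and when Ras and control alone were fitted (adjusted p = 0.0969). Gnrh1 fell in Myc (-0.67), NeuT (-0.82) and Src (-1.06), with limma adjusted p = 0.000974, 0.0002 and 3.26e-05. On the far side of Nefm, the disintegrin genes Adam7 and Adamdec1 had differences of 0.13 and -0.04 in Ras (limma adjusted p = 0.255 and 0.779). None of these 4 genes matched the Nefm difference in size, the nearest being Dock5. Nefm was chosen for its high Ras level, so this comparison is a description, and no cause was tested.

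**Figure D3:**
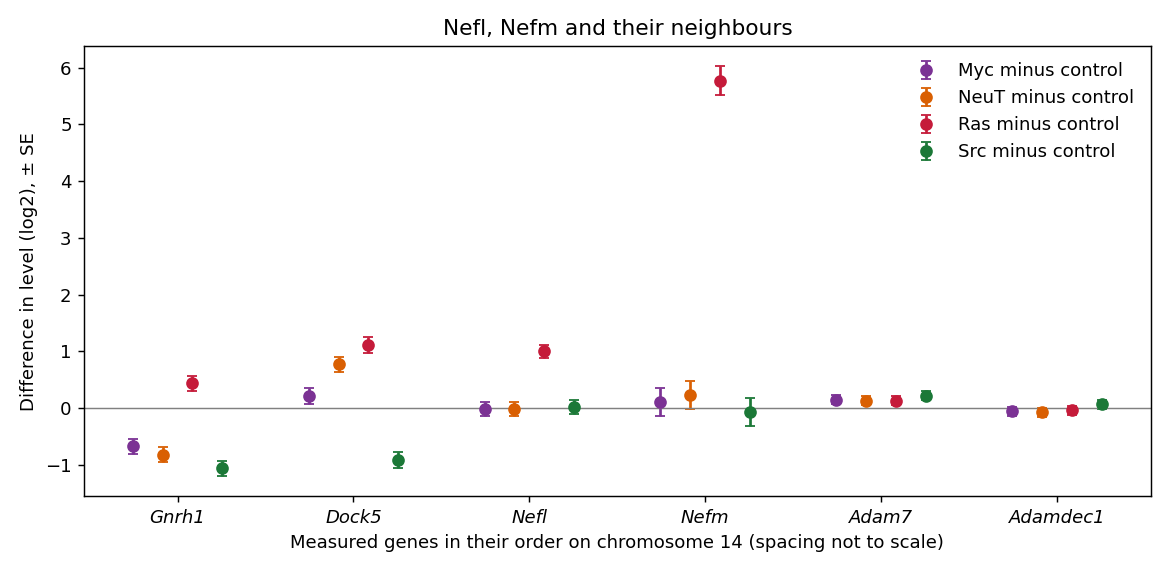
Difference in level (log2, ± SE from limma) of each oncogene group from control for 6 consecutive measured protein-coding genes around Nefl and Nefm on chromosome 14, in reference order and not to scale. In Ras the points are 0.44 for Gnrh1, 1.12 for Dock5, 1.00 for Nefl, 5.77 for Nefm, 0.13 for Adam7 and -0.04 for Adamdec1.

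The growth cone gene had another order of groups. Gap43 was at 11.04, 11.14 and 10.92 in NeuT arrays, against 6.40, 6.24 and 6.21 in control. Src arrays followed at 8.69, 8.57 and 8.81. The NeuT, Src and remaining arrays formed 3 separate levels, 2.11 apart between the lowest NeuT and the highest Src array and 1.70 between the lowest Src and the highest Ras array. Ras arrays were at 6.45, 6.87 and 5.85 and Myc arrays at 6.25, 6.12 and 6.31, both of which overlapped control. As a description, NeuT exceeded control by 4.75 ± 0.18, or 26.8-fold, and Src by 2.40 ± 0.18, or 5.28-fold. The 3 Ras arrays spread over 1.02, against 0.22 in NeuT and 0.19 in control.

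The receptor phosphatase was highest in Src and intermediate in NeuT. Ptprz1 was at 9.21, 9.22 and 9.25 in Src arrays and 4.84, 4.51 and 4.57 in control, a difference of 4.59 ± 0.23, or 24.0-fold. NeuT arrays were at 6.26, 6.34 and 6.37, above every control array and 2.84 below the lowest Src array. This NeuT level still lay under the median of all gene values. Myc arrays, at 4.31 to 4.58, overlapped control. Ras arrays were at 5.68, 4.32 and 4.96 and overlapped control as well, with array 1 the highest and array 2 the lowest. Among the Ras arrays, array 2 was thus highest for Nefm, Nefl, Nefh, Gap43 and Tubb3 and lowest for Ptprz1.

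The tubulin also rose in Src. Tubb3 was at 8.60, 9.33 and 9.01 in Src arrays, against 6.79, 6.63 and 6.37 in control, with no overlap. The difference was 2.39 ± 0.20 (95% interval 1.95 to 2.83; limma adjusted p = 1.29e-06), or 5.24-fold. Against the other oncogene groups it was 2.46 ± 0.17 (limma adjusted p = 1.34e-07). Of all genes, 26.4% passed in Src against control (14.2% higher, 12.2% lower), and 20.3% against the other oncogenes (8.96% higher, 11.3% lower). The last are 1787 and 2261 genes, or 1287 and 2783 with each array centred on its median. NeuT arrays were at 6.76, 7.10 and 7.09 and overlapped the controls by 0.03 (difference 0.39 ± 0.20, limma adjusted p = 0.199), so the NeuT difference did not pass. Myc arrays, at 6.51 to 6.60, lay within the control range (difference -0.03, limma adjusted p = 0.935).

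In the Ras lines Tubb3 was at 5.70, 6.51 and 5.90, the lowest group mean, and array 2 reached into the control range. The difference from control, -0.56 ± 0.20, missed the threshold (limma adjusted p = 0.0573). It passed without control array 3 (adjusted p = 0.0295), without Ras array 2 (adjusted p = 0.00565), without Src array 1 (adjusted p = 0.0396), without Src array 2 (adjusted p = 0.0441) and with array weights (-0.83, adjusted p = 0.00141). It also passed without dim genes and with the replicate number as a block. The other alternative fits did not pass, with limma adjusted p up to 0.217 and a difference as small as -0.39. Against the other oncogenes Ras was lower (-1.47 ± 0.17, limma adjusted p = 9.86e-06), and so was Myc (-0.77 ± 0.17, limma adjusted p = 0.00387). Of the 4 comparisons with control, 1 was thus called for Tubb3, 1 for Nefl and 0 for Nefh. For comparison, 28.6% of all genes passed in Myc against control (15.9% higher, 12.7% lower) and 26.8% in NeuT (15.2% higher, 11.6% lower). Against the other oncogenes the shares were 20.5% in Myc (12.1% higher, 8.43% lower) and 21.0% in NeuT (12.9% higher, 8.1% lower).

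Of the 6 members, Ptprz1 and Tubb3, both highest in Src, were the 2 that matched the RefSeq promoter table, and their promoters are shown. The table gives 250 bases before to 50 after a gene's start (build GRCm38.p6, plus strand for both). The files' own build is not given in the sources used here. Capitals mark the letters GGGCGG (the GC box) and CCAAT (the CCAAT box), each on either strand. The windows are chr6:22875252-22875551 for Ptprz1 and chr8:123411303-123411602 for Tubb3.
Ptprz1: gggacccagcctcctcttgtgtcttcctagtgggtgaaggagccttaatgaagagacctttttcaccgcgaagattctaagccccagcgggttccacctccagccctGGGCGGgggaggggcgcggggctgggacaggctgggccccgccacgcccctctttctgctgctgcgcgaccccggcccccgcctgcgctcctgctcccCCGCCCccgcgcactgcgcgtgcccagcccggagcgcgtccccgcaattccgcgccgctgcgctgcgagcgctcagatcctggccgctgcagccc
Tubb3: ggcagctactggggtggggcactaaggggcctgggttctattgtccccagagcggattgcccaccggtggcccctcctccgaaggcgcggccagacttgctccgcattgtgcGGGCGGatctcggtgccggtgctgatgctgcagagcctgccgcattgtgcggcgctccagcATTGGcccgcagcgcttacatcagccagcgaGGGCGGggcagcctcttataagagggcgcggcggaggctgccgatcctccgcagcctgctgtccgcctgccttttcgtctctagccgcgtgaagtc
Each window held the GC box at 2 places, starting at -143 and -45 in Ptprz1 and at -138 and -46 in Tubb3. Of the 32851 promoter windows in the table, 35.7% held it at least once. The CCAAT box was found in Tubb3 at -77 and not in Ptprz1, and in 37.4% of all windows. TATAAA (the TATA box, in 13.6% of windows) and TGANTCA (the AP-1 motif, in 7.81%) had 0 matches in both. Only these letters were searched, with N as any base, so near matches such as TATAAG in the Tubb3 window were not counted. GC content was 71.7% for Ptprz1 and 67.3% for Tubb3, against a median of 52.7% over all windows. These matches describe the letters in the windows and no binding.

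The genes whose profile over the 15 arrays was most like each member were listed by Pearson's r, given as a description. Arrays of a group share their oncogene, so r mostly reads the 5 group levels. Of 3095 genes with group means at least 1 apart and a mean of 6.47 or more in some group, the closest to Nefm were Ddr2 and Marchf11. Ddr2, a collagen-binding receptor tyrosine kinase, had r of 0.992 and was at 9.35 in Ras and 6.13 in control. Marchf11, a ubiquitin ligase, had r of 0.992 and was at 9.16 in Ras and 4.80 in control. Qpct (0.992), a glutaminyl cyclase, D5Ertd615e (0.990) and the serotonin receptor gene Htr2a (0.988) followed. All 5 had their highest group mean in Ras. Nefl and Nefh did not meet the conditions.

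Gap43 was most like the cyclin gene Ccnd1 (r of 0.940), at 11.65 in NeuT, 10.81 in Src and 10.23 in control. The linker histone gene H1f1 (0.939), the T-box factor gene Tbx20 (0.931), the cadherin gene Cdh13 (0.927) and the splicing factor gene Wbp11 (0.920) came next, all with NeuT highest and Src second. Ptprz1 was most like the sialyltransferase gene St3gal4 (0.931), the hyaluronan synthase gene Has3 (0.926), Porcn (0.918), which encodes the acyltransferase of Wnt proteins, Eya2 (0.909) and the matrix gene Tgfbi (0.907). Tubb3 was most like Has3 (0.950), the phospholipase gene Plch2 (0.948), Porcn (0.947), Eya2 (0.936) and Clca2 (0.934). Has3, Porcn and Eya2 thus stood among the 5 closest genes of both, and Has3 was at 6.68 in Src and 5.58 in control.

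The counts of the gene lists that follow stand beside the shares of all genes that passed against control. These were 15.9% higher and 12.7% lower in Myc, 15.2% and 11.6% in NeuT, 13.3% and 14.2% in Ras, and 14.2% and 12.2% in Src. Of 13 other intermediate filament genes, 3 rose and 2 fell in Ras (median difference 0.12, against 0.02 over all genes), and without control array 3 the counts were 2 and 1. Vim, which encodes vimentin of mesenchymal cells, was at 12.19, 11.94 and 12.19 in Ras and 9.20, 9.16 and 8.99 in control (2.99 ± 0.09, limma adjusted p = 2.21e-11). Vim also rose in NeuT (1.67) and fell in Myc (-1.57), and had a difference of 0.27 in Src (limma adjusted p = 1.92e-08, 3.64e-08 and 0.0508). The lamin gene Lmna rose in NeuT (1.12) and Myc (0.68), with limma adjusted p = 4.19e-05 and 0.00229. Sync, which encodes the muscle filament protein syncoilin, fell in all 4 line groups, with differences of -0.51 in Myc, -0.41 in NeuT, -0.43 in Ras and -0.40 in Src (limma adjusted p = 0.000184, 0.00121, 0.000933 and 0.00184). In Myc, NeuT and Src 1, 3 and 2 members of the list rose and 3, 1 and 2 fell; in Src, 1 rose and 2 fell without control array 3.

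The remaining tubulins went in several directions. Of 10 measured, 1 rose and 1 fell in Src, where Tubb3 rose. Tubb2b, another neuronal beta-tubulin, was the one that fell there: it was at 7.39, 6.97 and 7.10 in Src and 9.42, 9.46 and 8.90 in control (-2.11 ± 0.21, limma adjusted p = 5.5e-06). Src was thus high for one neuronal isotype and low for another. Tubb2b fell in Ras too (-1.69 ± 0.21, limma adjusted p = 2.38e-05). Tubg1, the gamma-tubulin of microtubule nucleation, rose in all 4 line groups, by 1.17 in Myc, 1.24 in NeuT, 0.52 in Ras and 0.85 in Src (limma adjusted p = 7.14e-06, 4.47e-06, 0.00574 and 0.000184). Tuba8 fell in Myc (-1.22) and Ras (-1.43), with limma adjusted p = 1.58e-05 and 3.15e-06. Of the list, 2, 2 and 2 members rose and 1, 0 and 3 fell in Myc, NeuT and Ras. Without control array 3, 1 rose and 2 fell in Myc, and 1 rose and 2 fell in Src.

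Of 24 further growth cone and neuronal microtubule genes, 5 rose and 8 fell in Ras, where 13.3% and 14.2% of all genes did. The counts were 3 and 4 in NeuT, 3 and 4 in Src and 1 and 4 in Myc. Medians were -0.07, 0.06, -0.03 and 0.01, against 0.02, 0.02, 0.06 and 0.03 over all genes. Without control array 3, 0 rose and 5 fell in Myc, 4 rose and 8 fell in Ras, and 2 rose and 4 fell in Src. Dpysl2, which encodes the collapsin response mediator CRMP2, was at 9.34, 9.14 and 9.36 in Ras and 7.64, 7.59 and 7.02 in control (1.86 ± 0.15, limma adjusted p = 3.57e-07). It rose in NeuT as well (1.03 ± 0.15, limma adjusted p = 0.000118). Its relative Dpysl3 fell in Myc (-2.38), Src (-1.53) and NeuT (-0.62), with limma adjusted p = 1.68e-06, 0.000135 and 0.0484. Map2, a microtubule-associated protein of dendrites, rose in NeuT (0.43), where Gap43 was highest, and fell in Myc (-1.25), Ras (-0.57) and Src (-0.77), with limma adjusted p = 0.00806, 1.14e-06, 0.0011 and 0.000131.

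**Figure D4:**
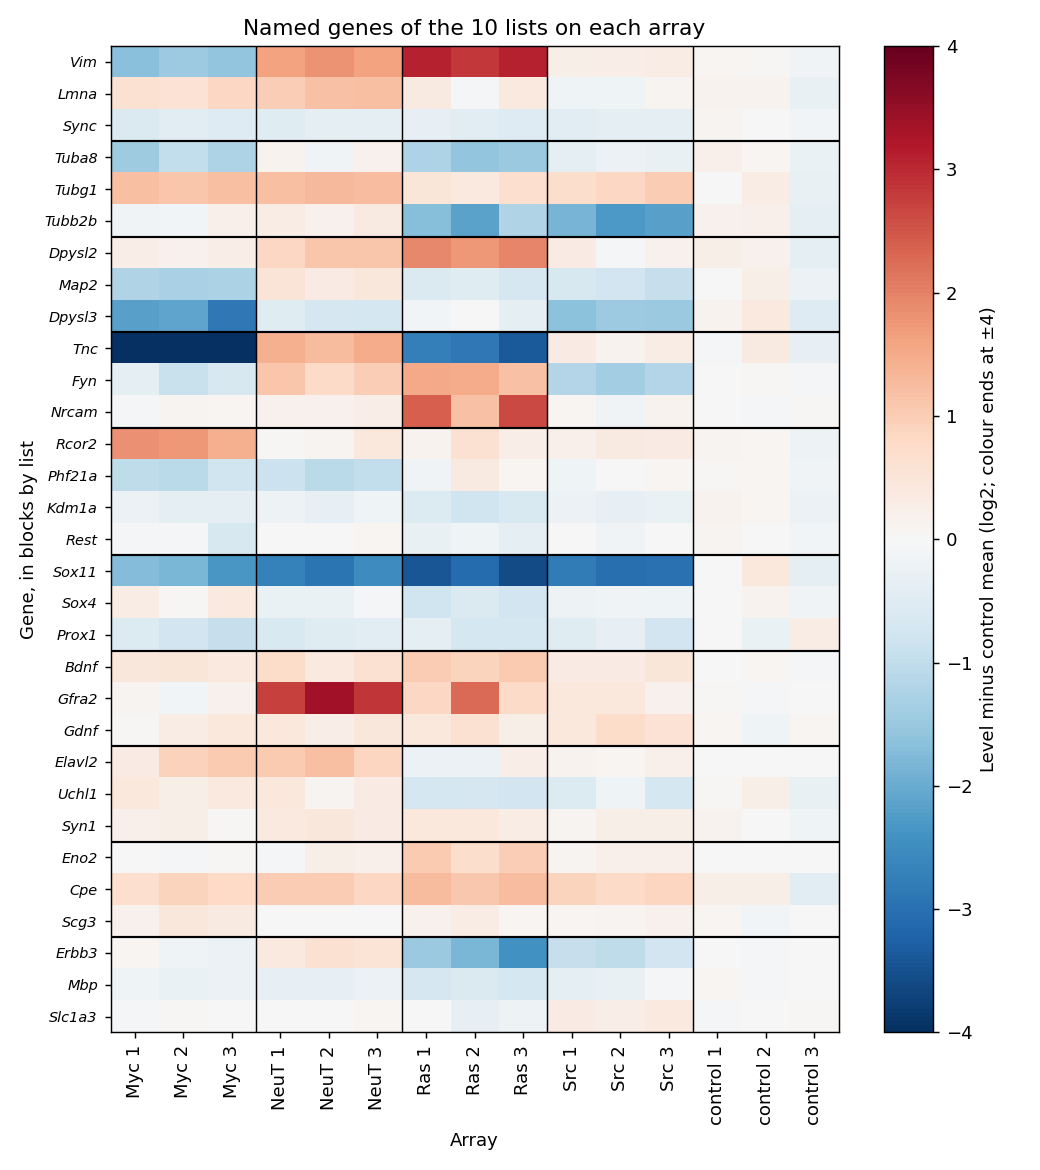
Level minus the control mean (log2) of the named genes of 10 lists on the 15 arrays, in blocks from the top: intermediate filaments, tubulins, growth cone and microtubule genes, Ptprz1 partners, REST complex, neuronal transcription factors, neurotrophin and GDNF family, neuron, neuroendocrine and glia markers. Vim and Dpysl2 are highest in Ras, Gfra2 in NeuT, and Sox11 is low in all 12 line arrays; colours end at ±4, which the Myc arrays pass for Tnc.

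Of 14 ligands and partners of Ptprz1, 2 rose and 3 fell in Src (median 0.12, against 0.06 over all genes), beside 14.2% and 12.2% of all genes, so the number that rose was at the share over all genes. In NeuT 3 rose and 4 fell, in Ras 2 and 3, and in Myc 1 and 5. Leaving out control array 3, 2 fell in Src, 4 in Ras and 4 in Myc. Ptn, which encodes the ligand pleiotrophin and was singled out after its values were seen, averaged 6.98 ± 0.29 in Src and 6.27 ± 0.16 in control (SD, n = 3 each; difference 0.72 ± 0.18, SE, limma adjusted p = 0.00925). Ptn fell in NeuT (-0.70) and Myc (-0.58), with limma adjusted p = 0.00903 and 0.0252, and the Myc call was lost without control array 3 (adjusted p = 0.0739). The matrix ligand gene Tnc was at 10.13, 9.95 and 10.10 in Src and 9.77, 10.17 and 9.47 in control, a difference of 0.26 ± 0.17 (limma adjusted p = 0.287). Tnc rose in NeuT (1.39) and fell in Ras (-2.99) and Myc (-4.36), with limma adjusted p = 3.11e-05, 1.27e-08 and 1.14e-09. Fyn, which encodes a Src family kinase and substrate of the phosphatase, fell in Src, to 5.82, 5.59 and 5.82, against 7.0, 7.04 and 6.93 in control (-1.25 ± 0.13, limma adjusted p = 1.18e-05). It also fell in Myc (-0.63) and rose in NeuT (0.96) and Ras (1.39), with limma adjusted p = 0.00233, 8.69e-05 and 2.33e-06. Nrcam, a neuronal adhesion molecule, was at 7.77, 6.55 and 8.0 in Ras and 5.40, 5.31 and 5.41 in control (2.06 ± 0.26, limma adjusted p = 2.51e-05). Ras array 2, the highest for Nefm, was the lowest of the 3 for Nrcam.

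REST is the repressor that silences neuronal genes in other tissues. Rest itself was at 8.24, 8.38 and 8.19 in Ras and 8.64, 8.55 and 8.42 in control, so the arrays did not overlap, but the difference of -0.27 ± 0.13 did not pass (limma adjusted p = 0.142). Differences in Myc, NeuT and Src were -0.27, 0.03 and -0.05 (limma adjusted p = 0.138, 0.925 and 0.789). Of the 11 measured genes of its complex, 1 rose and 1 fell in Ras, 1 and 2 in NeuT, 1 and 2 in Src and 1 and 3 in Myc. The numbers that fell were 2 in Ras, 3 in NeuT and 3 in Src without control array 3. The corepressor gene Rcor2 rose in Myc (1.67 ± 0.14, limma adjusted p = 1.09e-06). Phf21a, a histone reader of the same complex, fell in Myc (-0.97) and NeuT (-0.98), and the demethylase gene Kdm1a in Ras (-0.65) and Myc (-0.33), with limma adjusted p = 3.72e-05, 4.01e-05, 0.000261 and 0.0275.

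Neuronal transcription factor genes were mostly dim, with 1 to 4 of 17 reaching 6.47 on any array. In Ras 2 rose and 3 fell, in NeuT 1 and 2, in Src 2 and 2 and in Myc 1 and 2. Leaving out control array 3, 1 rose in Ras, and 1 fell in NeuT and 1 in Src. Sox11, of neural progenitors, fell in all 4 line groups, with differences of -1.97 in Myc, -2.72 in NeuT, -3.36 in Ras and -2.93 in Src (limma adjusted p = 4.45e-06, 2.54e-07, 1.59e-08 and 1.59e-07). Sox4 fell in Ras (-0.71, limma adjusted p = 0.000125). Prox1 fell in all 4 groups, with differences of -0.75, -0.51, -0.60 and -0.53 in Myc, NeuT, Ras and Src (limma adjusted p = 0.00168, 0.0219, 0.00861 and 0.0196). Without control array 3, where it was highest, the Prox1 calls in NeuT and Src were lost (adjusted p = 0.0876 and 0.0701).

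Neurotrophin and GDNF family genes rose in 3 of 11 members in NeuT, 3 in Ras, 4 in Src and 1 in Myc, and fell in 0, 1, 0 and 0. Over all genes 15.2% rose in NeuT, 13.3% in Ras, 14.2% in Src and 15.9% in Myc. Gfra2, a receptor for GDNF family ligands, was at 8.78, 9.40 and 8.89 in NeuT and 6.10, 5.99 and 6.03 in control (2.98 ± 0.30, limma adjusted p = 4.38e-06). In Ras it was at 6.88, 8.32 and 6.79 (1.29 ± 0.30, limma adjusted p = 0.00446), and array 2 was again the highest. Bdnf, the brain-derived neurotrophic factor gene, rose in all 4 groups, by 0.44 in Myc, 0.59 in NeuT, 0.99 in Ras and 0.38 in Src (limma adjusted p = 0.00209, 0.000232, 1.69e-06 and 0.00787). Gdnf rose in NeuT (0.38), Ras (0.42) and Src (0.57), with limma adjusted p = 0.0379, 0.0216 and 0.00388. Without control array 3, 1 member rose and 1 fell in Myc, 3 rose and 2 fell in Ras, and 3 rose and 0 fell in Src.

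**Figure D5:**
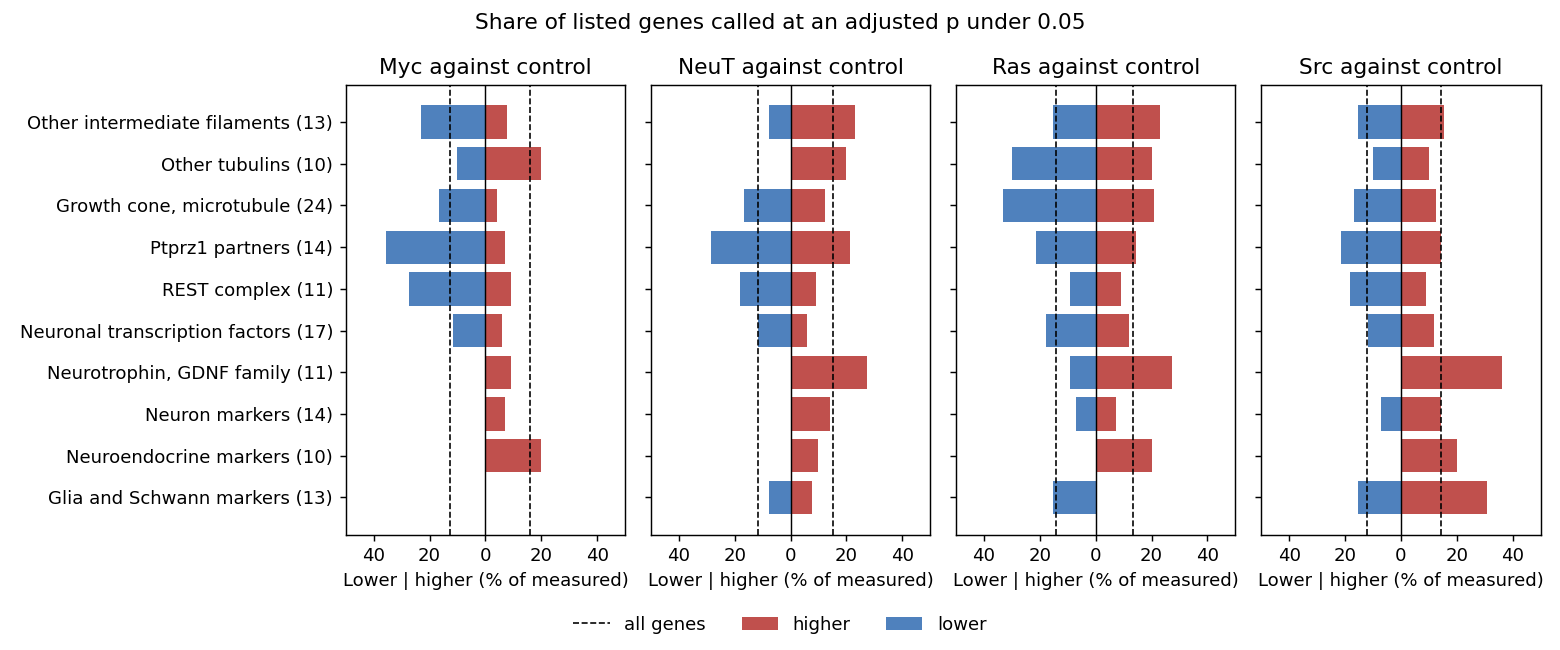
Share of the measured genes of 10 lists (number in brackets) that were called higher (right, red) or lower (left, blue) than control at an adjusted p under 0.05, with dashed lines at the share over all genes. For neuron markers the bars for higher reach 2 of 14 genes at most, in NeuT and Src.

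Markers of other cell types were read beside these results. Array values have no zero, so members that reached 6.47, the median named above, were counted. Of 14 neuron markers, 1 reached it on each NeuT, Ras, Src and control array and 2 on each Myc array. Their mean level was 5.60 to 5.67 in Ras, 5.75 to 5.80 in NeuT, 5.68 to 5.75 in Src, 5.67 to 5.79 in Myc and 5.59 to 5.66 in control. Those that rose were 1 in Ras, 2 in NeuT, 2 in Src and 1 in Myc, and 1 fell in Ras and 1 in Src. In Ras, 2 rose without control array 3. Elavl2, an RNA-binding protein of neurons, rose in NeuT (1.04) and Myc (0.76), with limma adjusted p = 0.000327 and 0.00325. The synapsin gene Syn1 rose in NeuT (0.40) and Ras (0.37), and Uchl1, a ubiquitin hydrolase, fell in Ras (-0.72) and Src (-0.47), with limma adjusted p = 0.00396, 0.00551, 0.00177 and 0.0278.

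Of 10 neuroendocrine markers 2 rose in Ras, 1 in NeuT, 2 in Src (1 without control array 3) and 2 in Myc, and 0 fell. Mean levels over the list were 6.04 to 6.09 in Ras, 5.94 to 5.98 in NeuT, 6.02 to 6.03 in Src, 5.89 to 5.96 in Myc and 5.83 to 6.07 in control. The neuronal enolase gene Eno2 was at 6.66, 6.32 and 6.62 in Ras and 5.64, 5.60 and 5.64 in control (0.91 ± 0.10, limma adjusted p = 7.76e-06). Cpe, a prohormone carboxypeptidase gene, rose in all 4 groups, by 0.78 in Myc, 0.95 in NeuT, 1.19 in Ras and 0.84 in Src (limma adjusted p = 0.000905, 0.000216, 2.54e-05 and 0.000766). Scg3, of secretory granules, rose in Myc (0.32, limma adjusted p = 0.0149) at a level of 4.30 to 4.59.

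Of 13 glia and Schwann cell markers, 4 rose and 2 fell in Src, beside 14.2% and 12.2% of all genes. Without control array 3 the counts were 2 and 1, near or below those shares. In NeuT 1 rose and 1 fell (0 and 1 without control array 3), in Ras 0 and 2, and in Myc 0 and 0. Mean levels over the list were 6.11 to 6.18 in Src, 6.13 to 6.14 in NeuT, 5.79 to 5.94 in Ras, 6.03 to 6.09 in Myc and 6.09 to 6.26 in control. Slc1a3, the glutamate transporter of astrocytes, rose in Src (0.32 ± 0.08, limma adjusted p = 0.00923), to 6.03 to 6.15. Erbb3, a receptor that epithelial cells also express, fell in Ras (-1.91) and Src (-0.90) and rose in NeuT (0.51), with limma adjusted p = 1.36e-06, 0.00157 and 0.0429. Without control array 3 the Erbb3 call in NeuT was lost (adjusted p = 0.0672). The myelin gene Mbp fell in Ras (-0.65), NeuT (-0.31) and Src (-0.24), with limma adjusted p = 2.77e-05, 0.0115 and 0.0421, and without control array 3 the Src call was lost (adjusted p = 0.0681).

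Epithelial markers separated Ras from the other groups. Of 10 measured, 9 fell in Ras, with a median of -5.04, and 0 rose. In Myc 7 fell, in NeuT 6 (7 without control array 3) and in Src 5 while 2 rose there. Mean levels over the list were 5.91 to 6.46 in Ras, 8.90 to 8.95 in Myc, 8.46 to 8.59 in NeuT, 9.51 to 9.72 in Src and 9.92 to 10.30 in control. Epcam, an epithelial adhesion molecule, was at 4.46, 4.47 and 4.38 in Ras and 9.69, 9.78 and 9.53 in control. The keratin gene Krt8 differed by -5.29 ± 0.10 and the E-cadherin gene Cdh1 by -5.25 ± 0.13 in Ras (limma adjusted p = 1.31e-13 and 3.24e-12). Of the 10 markers, 2 to 3 reached 6.47 on Ras arrays, against 7 in Myc, 6 in NeuT, 9 in Src and 9 in control, so the labelled cell type was not borne out by its markers in Ras.

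Among 9 fibroblast markers 2 rose and 2 fell in Ras, while 0 rose and 2 fell in each of Myc, NeuT and Src; without control array 3, 2 rose and 1 fell in Ras. Dcn, which encodes decorin, was at 8.04, 8.96 and 7.52 in Ras and 6.78, 6.94 and 7.39 in control (1.14 ± 0.27, limma adjusted p = 0.00494), and array 2 was the highest. Col3a1, a fibrillar collagen gene, rose in Ras (0.54), and Postn fell in Myc (-1.29), NeuT (-1.22), Ras (-1.40) and Src (-1.20), with limma adjusted p = 0.000164, 8.94e-08, 1.55e-07, 1.99e-08 and 2.3e-07. Mean levels over the list were 6.09 to 6.41 in Ras, 5.77 to 5.93 over the other lines and 6.15 to 6.28 in control. Of 6 melanocyte markers, read because Mc1r lies beside Tubb3, 1 rose in Ras, Mitf (0.84, limma adjusted p = 0.00569), and 0 passed in the others. Of the 11 kidney tubule markers 0 passed in any group; without control array 3, 1 rose in NeuT and 1 in Ras. The part of these marker differences in the neurofilament, Gap43, Ptprz1 and Tubb3 levels was not tested.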

How the data were processed

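Total RNA was extracted with Trizol, labelled by WT-Ovation Pico amplification with biotin as the label, per the labels' protocols. The deposited values are log2 levels from the authors. Per the submitters' processing notes the tools were RMA and Affymetrix Expression Console 1.1, whose roles are not stated; the background correction used is not given in the sources used here, nor is a genome build.

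Of 35556 probe sets, 21789 had 1 gene, 12146 had none and 1621 had several. Single-gene probe sets were used, and the brightest by mean was taken for 999 genes with several, which gave 19938 genes. Entrez identifiers matched 21698 probe sets to the reference, and 0 symbols changed. No filter on low values was applied, and no array was left out. Groups were taken from the labels.

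The fit (limma 3.58.1 in R 4.3.3, lmFit then eBayes) estimated 5 group means from all 15 arrays and was tested on simulated data. Each oncogene was set against control and against the mean of the other 3. Two-sided p-values were adjusted over all genes (Benjamini-Hochberg). A gene rose or fell where the adjusted p was under 0.05, whatever its fold. Named list genes were up to 3 per list by smallest adjusted p, the brightest where fewer passed, and Rest. The members and lists were chosen with earlier results of these data known. Alternatives were array weights, median centring, averaged probe sets, quantile normalization, leaving out dim genes, a robust trended variance, the replicate number as a block, a fit of only the 2 groups compared, and leaving out each array. The number of arrays limits the precision. Figures were drawn with Python 3.11.15 and matplotlib 3.10.9.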

Additional observations from a re-analysis of the deposited data

Results flagged for a closer look

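The difference of Nefl and Tubb3 from control was not the same in the 4 oncogene groups, by the test of each group against the other 3. For Nefl, Ras was higher than the others by 1.00, and Myc, NeuT and Src were lower, with differences of -0.34, -0.35 and -0.31 (limma adjusted p = 2.73e-06, 0.0234, 0.0198 and 0.0416); the mean they were set against holds Ras. For Tubb3, Src was higher by 2.46, and Ras and Myc were lower, with differences of -1.47 and -0.77 (limma adjusted p = 1.34e-07, 9.86e-06 and 0.00387). The mean that Myc and Ras were set against holds Src. No group of Nefh passed this test (limma adjusted p from 0.589 to 0.993), and no cause of these differences was tested.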

How the results depend on the processing

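Nefl in Ras against control kept its call in every alternative that tested it (1.00, range 0.87 to 1.1, adjusted p from 3.34e-06 to 0.00334), and so did Tubb3 in Src (2.39, range 2.21 to 2.58, adjusted p from 2.22e-08 to 0.000397). Leaving out dim genes gave no value for Nefl and Nefh, whose means lay under the minimum. Tubb3 in Ras against control (-0.56, adjusted p = 0.0573) passed at -0.56 without dim genes (adjusted p = 0.0346), at -0.83 with array weights (adjusted p = 0.00141) and at -0.56 with the replicate number as a block (adjusted p = 0.0298); without 1 array it ran from -0.79 to -0.39, and its alternatives had adjusted p from 0.00141 to 0.217. The other comparisons of Nefl, Nefh and Tubb3 with control changed no call. Nefl against the other oncogenes lost 13 calls over 3 groups: in Src (10 alternatives, adjusted p up to 0.227, 0.0573 with the block), Myc (2, up to 0.139 without Myc array 1) and NeuT (1, 0.141 without NeuT array 1). Genes called in Ras against control fell from 5469 to 3567 when these 2 groups alone were fitted. The other 183 counts of genes stayed within 1.5 times, and they include the same kind of fit for Myc, NeuT and Src. The cause of the fall in Ras was not tested. Nefm, Gap43 and Ptprz1 were followed over median centring, quantile normalization, averaged probe sets and leaving out each array. The difference from control ran from 5.37 to 6.09 for Nefm in Ras, 4.69 to 4.8 for Gap43 in NeuT and 4.52 to 4.69 for Ptprz1 in Src. All 216 values moved by less than 1 pooled SD of the 2 groups' arrays, but most could not have moved further. Leaving out 1 of 3 arrays cannot shift a difference that far, and averaging changes nothing for a gene with 1 probe set. Of 1804 values of the neighbouring genes, 56 lost a call and 18 gained one. Of 56 list counts, 7 moved by over 1.5 times without control array 3. The replicate numbers were not taken to pair the arrays, because deviations of same-numbered arrays correlated from -0.085 to 0.120 over 30 pairs and 2 pairs were over 0.1. As a hint from the data, 11 of 15 arrays were closest to their own number. The block left 5469 calls in Ras against control and 5314 in Src. Levels near background limit what can be read for Nefl, Nefh and the dim state of Nefm and Ptprz1.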

Other observations

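The genes beside the other members were read in the same way, by position and with the members' values known. Zbtb20, a zinc finger repressor gene next to Gap43, was at 6.99 in Src and 9.43 in control (-2.43 ± 0.15, limma adjusted p = 6.66e-08), while Gap43 was higher there. It was also lower in Myc (-0.74, limma adjusted p = 0.00185), and its difference in NeuT was -0.14 (limma adjusted p = 0.586). On the other side of Gap43, the adhesion gene Lsamp had differences from -0.01 to 0.13 over the 4 groups (limma adjusted p from 0.204 to 0.933). Tigit, the immune receptor gene beyond Zbtb20, rose in Ras (1.88), NeuT (1.51) and Myc (1.49), with limma adjusted p = 0.000159, 0.00105 and 0.00106.

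Around Ptprz1, the cytokine-like gene Fam3c fell in Myc (-0.37), NeuT (-0.60), Ras (-0.87) and Src (-0.42), with limma adjusted p = 0.0284, 0.0013, 5.39e-05 and 0.0175. The Myc call was lost in 6 alternatives (adjusted p up to 0.123, without control array 2) and the Src call in 4 (up to 0.0766, without control array 2); the NeuT and Ras calls held in all that were run. Wnt16 did not pass in any group (limma adjusted p from 0.315 to 0.999). Beside Tubb3, the melanocortin receptor gene Mc1r and Def8 were at 6.16 and 6.39 in Src and 6.03 and 6.35 in control (limma adjusted p = 0.359 and 0.717). Beside Nefh, Thoc5 rose in Myc (0.65) and NeuT (0.66), with limma adjusted p = 0.0013 and 0.00134. Nipsnap1, the next gene along, fell in Ras (-1.63 ± 0.20, limma adjusted p = 1.88e-05). These neighbours were chosen for mention after their values were seen.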
